A study of Mus musculus with 12 samples.

Results

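The genes of prostaglandin synthesis, breakdown and sensing were described in femoral head cartilage of TS-4/5∆cat mice that was cultured without an agent, in IL-1α or in retinoic acid. The members were 10 genes, taken as every probe of the array whose gene symbol was Pla2g4a, Ptgs1, Ptgs2, Ptges, Ptges2, Ptgds, Ptgis, Hpgd, Ptger2 or Ptger4. These symbols carried 15 of the 46632 probes and were 10 of the 34509 symbols on the array. All animals, also those that gave the untreated cultures, carried in-frame deletions of the catalytic-domain exons of both Adamts4 and Adamts5, so every culture lacked both aggrecanase activities and no wildtype tissue was measured. Hips from mice aged 21 days were kept 4 to a well and were left without an agent, given 10 ng/mL IL-1α or given 10 µM retinoic acid for 3 days. Each treatment had 4 bead arrays, 2 from the mouse line named Donut in batch 1 and 2 from the line named Gertrude in batch 2, so line and batch were the same division and cannot be told apart. The labels describe a period in serum before treatment while the methods describe serum-free medium, and the labels do not say which arrays came from separate animals. The methods name 3 unpooled mice per treatment, fewer than the 4 arrays, so n counts arrays and the p-values measure the spread between these arrays.

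Prostaglandins are lipid signals made from arachidonic acid, which cytosolic phospholipase A2 (Pla2g4a) frees from membranes. The cyclooxygenases Ptgs1 and Ptgs2 turn it into a common precursor, which terminal synthases convert to prostaglandin E2 (Ptges, Ptges2), prostaglandin D2 (Ptgds) or prostacyclin (Ptgis), while Hpgd inactivates prostaglandins and Ptger2 and Ptger4 are receptors for prostaglandin E2. In joint tissue this pathway is known for its induction by interleukin-1 and as the target of anti-inflammatory drugs.

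Intensities were background-corrected, quantile-normalized and put on a log2 scale, and a probe was called detected on an array at a detection p under 0.05. Between 13786 and 19485 probes were detected per array, and the lowest signal of a detected probe was 4.86 to 5.48, so a level below that range lay in the background. The 18200 probes detected on at least 4 of the 12 arrays were tested with limma, with treatment and a factor for batch and replicate in the model, and a probe was called at a Benjamini-Hochberg adjusted p under 0.05. The chondrocyte markers were present, with 9 of 10 detected on at least 1 array, and Matn3 was undetected on all 12. The summed intensity of the chondrocyte list was 62610 to 74150 on the untreated arrays, 35440 to 47250 with IL-1α and 10220 to 15490 with retinoic acid. The red cell list summed to 21590 to 27780 untreated, 24830 to 33920 with IL-1α and 18910 to 31900 with retinoic acid, the osteoclast list to 1757 to 5068, 3543 to 5367 and 2959 to 7330, and of the mast cell markers Cpa3, Mcpt4, Cma1 and Fcer1a were undetected on all arrays. Tissue RNA was measured in bulk, so fewer cells of a type and less RNA per cell cannot be told apart. The probe for Adamts5 was detected on 1 array and that for Adamts4 on all 12, but it is not known whether either probe lies in the deleted part, so neither checks the genotype.

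Of the 15 probes, 9 passed the detection filter, and they stood for 7 genes. Pla2g4a, Ptgs2 and Ptger4 had no probe that passed. IL-1α was followed by higher Ptges and Ptges2, slightly higher Ptger2 and lower Ptgis, and retinoic acid by smaller rises of Ptges and Ptges2, a higher signal of 1 of the 3 Ptgs1 probes, and lower Ptgis and Hpgd. With IL-1α against untreated, 4 of the 9 probes were called, 3 higher and 1 lower, against 29.3% of all tested probes (15.2% higher and 14.1% lower). With retinoic acid against untreated, 5 of the 9 were called, 3 higher and 2 lower, against 35.4% of all tested probes (18.2% higher and 17.1% lower). Between retinoic acid and IL-1α, 4 of the 9 were called, 1 higher and 3 lower with retinoic acid, against 31.1% of all (15.2% higher and 15.8% lower). The median log2 fold change of the 9 probes was 0.43 with IL-1α and 0.33 with retinoic acid, where the median of all tested probes was 0.02 for each. The 2 comparisons against untreated share the untreated arrays. Because 3 of the 9 probes belong to Ptgs1, these counts are not counts of independent genes. The Ptger2 probe passed the filter through treated arrays only, so its call with IL-1α is not independent of the filter.

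**Figure D1:**
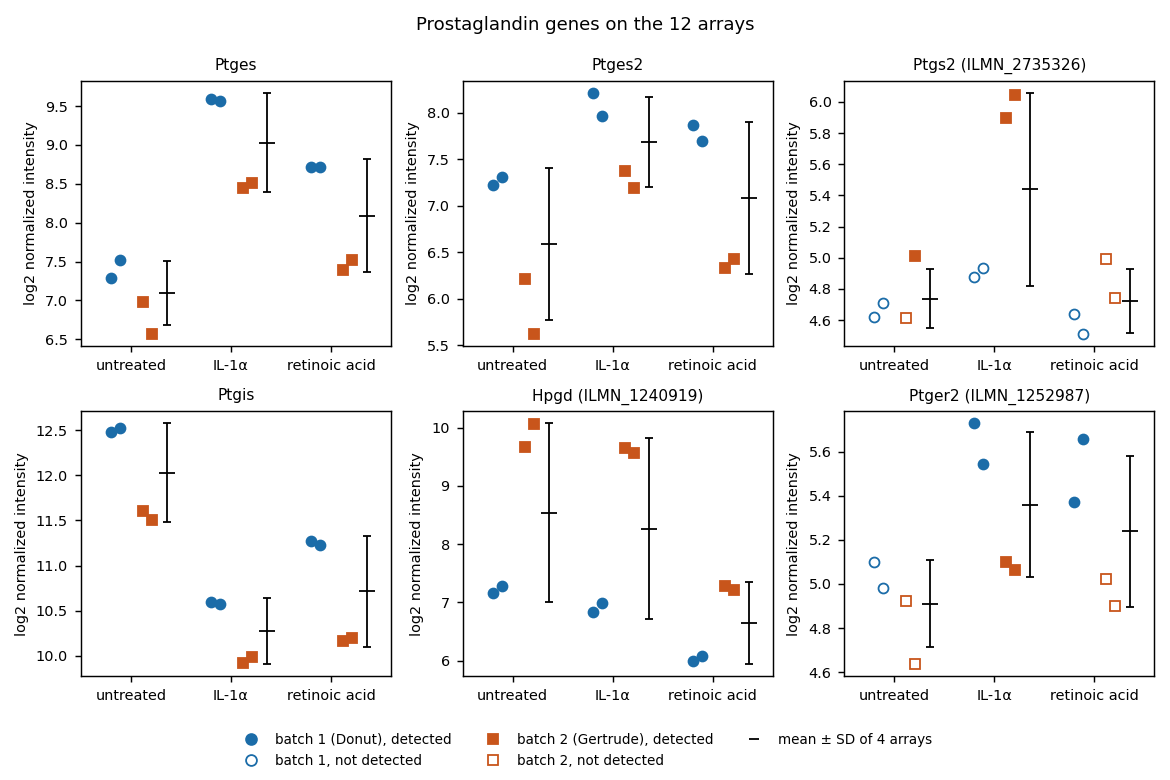
Log2 normalized intensity of 6 member probes on each of the 12 arrays, by treatment, with batch 1 as circles, batch 2 as squares and open symbols where the probe was not detected; the bar beside each group is the mean ± SD of its 4 arrays. Ptges is highest with IL-1α in both batches, Ptgis is highest untreated, Hpgd is lowest with retinoic acid within each batch, and Ptgs2 is detected on 1 untreated and 2 IL-1α arrays of batch 2.

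The prostaglandin E2 synthases among the members were called higher with both agents. Ptges (probe ILMN_2616028), the inducible microsomal synthase, had untreated log2 intensities of 7.28 and 7.52 in batch 1 and of 6.99 and 6.57 in batch 2. Under IL-1α the pairs were 9.59 and 9.57, then 8.45 and 8.51. Under retinoic acid they were 8.72 and 8.71, then 7.40 and 7.53. All 4 IL-1α arrays lay above all 4 untreated arrays, whereas the retinoic acid arrays overlapped both other groups unless each batch was read on its own. Ptges rose 3.84-fold with IL-1α, from 7.09 ± 0.41 to 9.03 ± 0.64 (SD, n = 4 each), a log2 fold change of 1.94 ± 0.15 (SE; adjusted p = 1.46e-06). The same step gave p = 0.0286 in a two-sided exact permutation test over the 8 arrays, the smallest p that 4 against 4 arrays allow. With retinoic acid Ptges rose 2.00-fold to 8.09 ± 0.73, a log2 fold change of 1.00 ± 0.15 (SE; adjusted p = 0.000206), and the exact p was 0.0571. Ptges was 1.92-fold lower with retinoic acid than with IL-1α (log2 fold change -0.94, adjusted p = 0.000364), where the pooled groups overlapped and the exact permutation p was 0.171. The order untreated, retinoic acid, IL-1α was thus called at both steps in the model with batch, and held within each batch. Within batches the rise with IL-1α was 2.18 and 1.71 and that with retinoic acid was 1.31 and 0.68 on the log2 scale, and the differences between batches were not called (adjusted p = 0.248 and 0.197) in tests that called 5.32% and 2.7% of all probes.

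Ptges2 (ILMN_2639527), a second membrane-associated prostaglandin E synthase that is usually described as constitutive, moved the same way by less. The untreated pairs were 7.23 and 7.30, then 6.22 and 5.62, the last being the widest pair within a batch for this probe. The IL-1α arrays gave 8.21 and 7.97, then 7.37 and 7.19, and the retinoic acid arrays 7.87 and 7.69, then 6.33 and 6.43. Within each batch both IL-1α arrays were the highest, and over both batches the 3 groups overlapped. Ptges2 rose 2.13-fold with IL-1α (log2 fold change 1.09 ± 0.16, SE; adjusted p = 0.00023) and 1.40-fold with retinoic acid (0.49 ± 0.16, SE; adjusted p = 0.0271). The rise with retinoic acid was not called when any 1 of 5 arrays was left out, namely untreated batch 1 replicate 1, untreated batch 2 replicate 2, retinoic acid batch 1 replicates 1 and 2, or retinoic acid batch 2 replicate 2, with adjusted p between 0.0688 and 0.115. Ptges2 was 1.52-fold lower with retinoic acid than with IL-1α (-0.60, adjusted p = 0.01).

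Markers of macrophages, cells known to make prostaglandin E2, moved beside the synthases. The summed intensity of the 7-gene list was 1720 to 2953 untreated, 3843 to 6689 with IL-1α and 2574 to 4596 with retinoic acid. The list did not move as one, since Cd14 rose by 2.73 and Cd68 by 0.97 on the log2 scale with IL-1α, while Adgre1 fell by 0.78, Mrc1 fell by 1.41 and Ptprc was undetected on all 12 arrays. The part of these cells in the rise of Ptges and Ptges2 was not tested.

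Since Ptges and Ptges2 rose under both agents, the 250 bases upstream of their RefSeq start sites (GRCm38.p6) are shown, Ptges from chr2:30903298-30903547 on the minus strand and Ptges2 from chr2:32395640-32395889 on the plus strand, each 5′ to 3′ in the direction of its gene. The capitals mark GC boxes, the letters GGGCGG.
Ptges: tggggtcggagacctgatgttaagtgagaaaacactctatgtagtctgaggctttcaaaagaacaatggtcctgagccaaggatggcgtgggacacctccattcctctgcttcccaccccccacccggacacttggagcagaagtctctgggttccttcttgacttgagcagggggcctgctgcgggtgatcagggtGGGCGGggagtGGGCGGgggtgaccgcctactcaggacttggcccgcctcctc
Ptges2: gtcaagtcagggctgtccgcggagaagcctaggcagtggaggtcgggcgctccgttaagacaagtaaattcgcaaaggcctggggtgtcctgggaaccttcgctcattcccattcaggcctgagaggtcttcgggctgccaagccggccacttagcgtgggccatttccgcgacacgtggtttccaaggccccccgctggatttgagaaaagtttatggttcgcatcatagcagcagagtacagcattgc
The Ptges window held GC boxes beginning at -53 and -42 from the start site, and the Ptges2 window held none. Both strands were searched for the GC box, the NF-kappaB motif, the cAMP response element TGACGTCA, the AP-1 motif TGANTCA, the nuclear receptor half-site AGGTCA and the letters TATAAA, and none but the GC box occurred in either window. Of 32851 mouse promoters of this length, 32.7% held a GC box, 7.25% the NF-kappaB motif, 1.55% the cAMP response element, 6.75% the AP-1 motif, 14% the half-site and 12.4% TATAAA. A match of letters describes the window and does not show that a factor binds there.

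Upstream of the synthases, Ptgs2, the inducible cyclooxygenase, was near background. Its probe ILMN_2735326 was detected on 3 of the 12 arrays, all in batch 2, and so did not pass the filter. In batch 2 it read 5.90 and 6.04 with IL-1α, 4.61 and 5.01 untreated, and 4.99 and 4.74 with retinoic acid. In batch 1 it read 4.88 and 4.94 with IL-1α, 4.62 and 4.71 untreated, and 4.64 and 4.51 with retinoic acid, all undetected. The 2 IL-1α arrays of batch 2 thus stood above the other 10 arrays. Within batch 2 the level was at least 1.92-fold higher with IL-1α than with retinoic acid, a lower bound from the lowest detected signal of the retinoic acid arrays. Over both batches no bound is given, since the IL-1α arrays of batch 1 were undetected. Over all 8 arrays the exact permutation p was 0.0857 for IL-1α against untreated, and with every probe of the array fitted the log2 difference was 0.70 (adjusted p = 0.0761). The other Ptgs2 probe, ILMN_2717913, was undetected on all 12 arrays. Its 4 IL-1α values, 4.72 to 4.99, lay above its 4 untreated values, 4.56 to 4.68, but both ranges were in the background and no fold is given.

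Ptgs1, the constitutive cyclooxygenase, was read by 3 probes that did not move alike. Probe ILMN_1224866 was undetected on all 6 arrays of batch 1, at 4.49 to 4.66. In batch 2 it read 5.52 and 5.25 untreated, 6.09 and 6.29 with IL-1α, and 6.31 and 6.40 with retinoic acid, so both treated pairs lay above the untreated pair there. Its rise with retinoic acid was called (log2 fold change 0.54 ± 0.18, SE; adjusted p = 0.0292) and that with IL-1α was not (0.43 ± 0.18, SE; adjusted p = 0.0834). The call rested on batch 2, where the difference was 0.98, and it was lost when any 1 of the 4 untreated or retinoic acid arrays of that batch was left out, with adjusted p between 0.0914 and 0.125. Without untreated batch 1 replicate 1, in contrast, the difference with IL-1α was called (0.60, adjusted p = 0.0321).

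Probe ILMN_1233864 of Ptgs1 was also undetected throughout batch 1. In batch 2 it read 5.94 and 5.84 untreated, 6.24 and 5.99 with IL-1α, and 6.30 and 6.10 with retinoic acid. Neither treatment difference was called, at 0.21 with IL-1α (95% interval -0.12 to 0.54) and 0.20 with retinoic acid (95% interval -0.12 to 0.53), although the second was called without retinoic acid batch 1 replicate 1 (0.40, adjusted p = 0.0408). Probe ILMN_1239239 was detected on 11 of the 12 arrays. It read 5.40 and 5.89, then 6.08 and 6.15 untreated, 5.84 and 5.62, then 5.68 and 5.71 with IL-1α, and 5.53 and 5.17, then 6.96 and 6.81 with retinoic acid. The 2 retinoic acid arrays of batch 2 were its highest and the 2 of batch 1 were among its lowest, so the pooled difference between retinoic acid and IL-1α, 0.40 (adjusted p = 0.284), covered -0.38 in batch 1 and 1.19 in batch 2. The difference between the batches was 1.57 ± 0.26 (SE; adjusted p = 0.00396), where 9.76% of all tested probes were called in this test. Without retinoic acid batch 1 replicate 2 the pooled difference was called (0.71, adjusted p = 0.0414). The probes were set side by side within themselves only, since brightness differs between probes for reasons other than transcript amount.

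**Figure D2:**
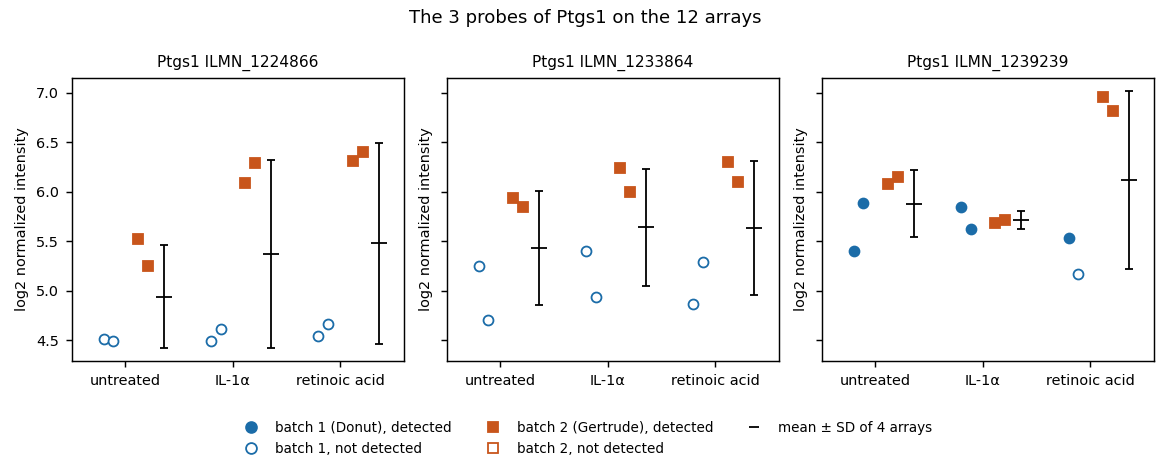
Log2 normalized intensity of the 3 Ptgs1 probes on each of the 12 arrays, by treatment, with batch 1 as circles, batch 2 as squares, open symbols where the probe was not detected and the mean ± SD of 4 arrays beside each group. The first 2 probes are undetected on all batch 1 arrays, and the third has its highest values, 6.96 and 6.81, on the retinoic acid arrays of batch 2.

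Pla2g4a, the cytosolic phospholipase A2, had 1 probe, which was undetected on all 12 arrays. It was 1 of 5 member probes undetected on every array, with 1 each of Ptgs2, Hpgd and Ptger2 and the only probe of Ptger4. Their values ran from 4.37 to 4.99, within or below the range of the lowest detected signals. For Pla2g4a and Ptger4 the arrays therefore give no level and no comparison, which does not show that the transcripts were absent.

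Ptgis (ILMN_2724942), prostacyclin synthase, was the member that fell under both agents. Untreated values were 12.48 and 12.53 in the first batch, then 11.61 and 11.51 in the second. The IL-1α arrays gave 10.60 and 10.58, then 9.92 and 9.99, and the retinoic acid arrays gave 11.27 and 11.23, then 10.16 and 10.20. Every untreated array lay above every treated array. Ptgis fell by 1.76 on the log2 scale with IL-1α (SE 0.12, adjusted p = 4.67e-07), a level 3.39-fold lower, and by 1.32 with retinoic acid (SE 0.12, adjusted p = 2.4e-06), a level 2.49-fold lower. Both steps had an exact permutation p of 0.0286, the smallest possible. Within batches the differences were -1.91 and -1.61 with IL-1α and -1.25 and -1.38 with retinoic acid, and neither effect was called as different between batches (adjusted p = 0.359 and 0.814).

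Between the agents, Ptgis was 1.36-fold higher in the retinoic acid cultures (log2 fold change 0.44 ± 0.12, SE; adjusted p = 0.0135). This smaller step was not called when any 1 of the 4 IL-1α or retinoic acid arrays of batch 1 was left out (adjusted p between 0.0555 and 0.0658). Endothelial cells are a known source of prostacyclin, and their markers moved with IL-1α. The summed intensity of the 6-gene endothelial list was 1938 to 2377 untreated, 947.7 to 1241 with IL-1α and 2127 to 2508 with retinoic acid, with 3 genes called lower with IL-1α and 1 called higher with retinoic acid. The fibroblast list, a further possible source, gave 13950 to 17230 untreated, 13690 to 15430 with IL-1α and 10610 to 12990 with retinoic acid. Of its 4 tested genes, 3 were called lower with IL-1α (Thy1 at -1.25, Pdgfra at -0.88 and Dpt at -0.56), while with retinoic acid 3 were called lower and Pdgfra higher (0.95). The part of either cell type in the fall of Ptgis was not tested.

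Ptgds (ILMN_2734070), a prostaglandin D2 synthase, was dim. It read 5.98 and 5.29, then 5.51 and 4.78 untreated, 5.84 and 6.20, then 5.69 and 5.85 with IL-1α, and 6.06 and 6.05, then 5.39 and 5.36 with retinoic acid. The untreated values overlapped those of both treatments. The difference was 0.50 with IL-1α (95% interval 0.11 to 0.90, adjusted p = 0.0551) and 0.33 with retinoic acid (95% interval -0.07 to 0.72, adjusted p = 0.192), and neither was called. The difference with IL-1α was called when untreated batch 1 replicate 1, untreated batch 2 replicate 1 or IL-1α batch 1 replicate 1 was left out (0.61 to 0.69, adjusted p between 0.0171 and 0.0329), and also without the replicate block (adjusted p = 0.0395).

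Hpgd, the dehydrogenase that inactivates prostaglandin E2, fell with retinoic acid. Probe ILMN_1240919 had untreated values of 7.17 and 7.27 in the first batch against 9.66 and 10.07 in the second. The IL-1α arrays gave 6.84 and 6.99, then 9.65 and 9.57, and the retinoic acid arrays gave 5.98 and 6.08, then 7.29 and 7.21. Within each batch the retinoic acid pair was the lowest by a wide step, but the retinoic acid arrays of batch 2 were as bright as the untreated arrays of batch 1. Hpgd fell by 1.90 on the log2 scale with retinoic acid (SE 0.26, adjusted p = 8.87e-05), a level 3.74-fold lower than untreated. Against IL-1α it was 3.09-fold lower (log2 fold change -1.63 ± 0.26, SE; adjusted p = 0.000354). With IL-1α the difference from untreated was -0.28 (95% interval -0.84 to 0.29, adjusted p = 0.459). Exact permutation tests over the pooled arrays gave p = 0.143 for retinoic acid against untreated and 0.171 against IL-1α, since they do not separate the batches. The other Hpgd probe, ILMN_2502726, was undetected on all 12 arrays.

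The fall of Hpgd differed in size between the batches. It was -1.19 in batch 1 and -2.62 in batch 2 against untreated, a difference of -1.42 ± 0.22 (SE; adjusted p = 0.00413) in a test that called 2.7% of all probes. Against IL-1α it was -0.88 and -2.37, a difference of -1.48 ± 0.22 (SE; adjusted p = 0.00169) in a test that called 9.76% of all probes. The retinoic acid arrays of batch 1, at 5.98 and 6.08, lay close to their lowest detected signals of 5.36 and 5.34. Those of batch 2, at 7.29 and 7.21, lay further above theirs, 5.03 on each. How far background limited the fall in batch 1 was not tested. Hpgd and the Ptgs1 probe ILMN_1239239 were the 2 of 9 member probes with an effect that differed between batches in at least 1 comparison, against 13% of all probes. Marker lists of other cell types moved with retinoic acid too. The osteoblast sum also fell with IL-1α, and the neutrophil sums of untreated and retinoic acid arrays overlapped. The osteoblast list summed to 9672 to 11560 untreated, 2651 to 4914 with IL-1α and 2786 to 4297 with retinoic acid, and the neutrophil list to 9490 to 15310, 16180 to 16960 and 5517 to 14560. Gene by gene, 4 of the 6 neutrophil markers tested were called lower with retinoic acid and 0 with IL-1α. Of the 4 osteoblast markers tested, 3 were called lower with each agent. Of 8 chondrocyte markers tested, 8 were lower with retinoic acid and 6 with IL-1α. The part of these cells in the fall of Hpgd was not tested.

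The promoter of Hpgd is shown because the gene had the widest change with retinoic acid among the members. It is the 250 bases before the RefSeq start site, chr8:56294302-56294551 on the plus strand of GRCm38.p6, with capitals where a GC box lies on the opposite strand.
Hpgd: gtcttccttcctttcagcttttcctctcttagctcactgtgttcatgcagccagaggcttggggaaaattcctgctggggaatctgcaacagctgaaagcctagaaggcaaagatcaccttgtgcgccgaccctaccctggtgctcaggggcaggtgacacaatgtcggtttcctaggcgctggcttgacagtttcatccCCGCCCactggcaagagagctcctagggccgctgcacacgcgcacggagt
The box began at -50, and none of the other motifs, the half-site AGGTCA included, occurred in the window.

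**Figure D3:**
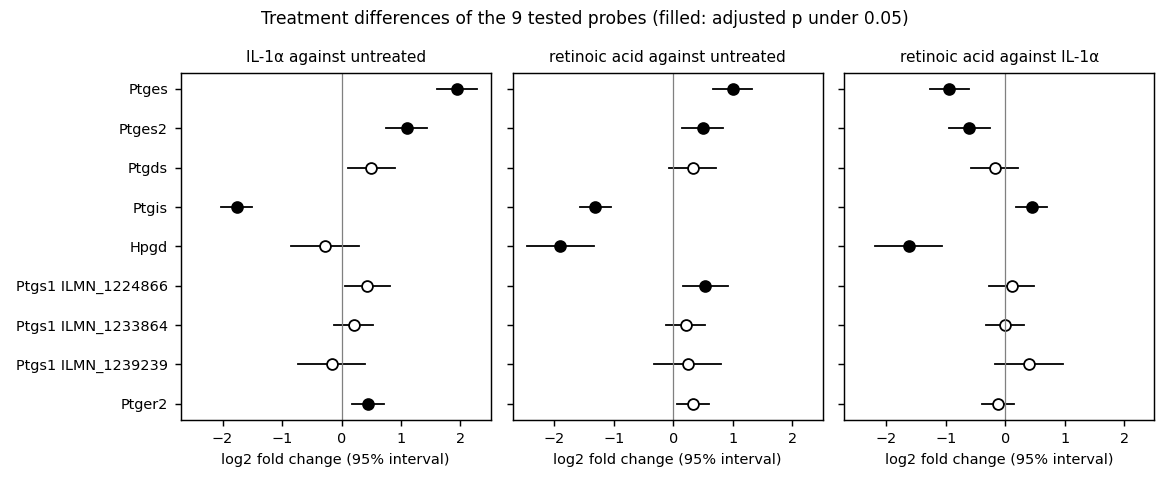
Log2 fold change of the 9 tested member probes in the 3 comparisons, with 95% intervals from limma and filled symbols where the adjusted p was under 0.05. Ptges (1.94) and Ptges2 (1.09) lie to the right of 0 with IL-1α, Ptgis (-1.76) to the left, and Hpgd lies to the left with retinoic acid (-1.90).

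Among the prostaglandin E2 receptors, Ptger2 was close to background and Ptger4 was not detected. Ptger2 (ILMN_1252987) was detected on 4 of 4 IL-1α arrays, on 2 of 4 retinoic acid arrays, both in batch 1, and on 0 of 4 untreated arrays. The values were 5.10 and 4.98, then 4.92 and 4.64 untreated, 5.73 and 5.55, then 5.10 and 5.06 with IL-1α, and 5.37 and 5.66, then 5.02 and 4.90 with retinoic acid. In each batch both IL-1α arrays exceeded both untreated arrays. The probe passed the filter through treated arrays only, with detection p of 0.033 to 0.045 on the IL-1α arrays. Its test against untreated is therefore not independent of the filter. Since the untreated level is only a limit, Ptger2 was at least 1.18-fold higher with IL-1α (fitted log2 fold change 0.45 ± 0.13, SE; adjusted p = 0.0171). The call was lost without untreated batch 1 replicate 1, untreated batch 1 replicate 2 or IL-1α batch 1 replicate 1 (adjusted p between 0.0519 and 0.0717). Within batch 1, where both retinoic acid arrays were detected, Ptger2 was at least 1.17-fold higher with retinoic acid than untreated. Over both batches the difference with retinoic acid was not called (adjusted p = 0.0581), and no bound is given because 2 of the 4 arrays were detected. It was called without untreated batch 2 replicate 1 (adjusted p = 0.0306) and without the replicate block (adjusted p = 0.0448). The second Ptger2 probe, ILMN_1223571, was undetected on all 12 arrays.

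The levels of the members also divided the batches. All 9 tested probes were called between batch 2 and batch 1, as were 76.3% of all probes, with 33.4% higher and 42.9% lower in batch 2. Hpgd was 4.55-fold brighter in batch 2 (log2 difference 2.19, adjusted p = 6.17e-08). The 3 Ptgs1 probes were brighter too, by 1.43, 1.00 and 0.66 on the log2 scale. The first of these values, for ILMN_1224866 and ILMN_1233864, set batch 2 against undetected levels throughout batch 1. Both probes passed the filter through batch 2 alone, so their calls between batches are not independent of the filter. Ptges2 was 2.27-fold dimmer in batch 2, Ptges 1.99-fold, Ptgis 1.84-fold, Ptgds 1.39-fold and Ptger2 1.37-fold. The Ptger2 value includes undetected levels, since its untreated arrays were undetected in both batches. Each of these differences belongs to the mouse line and the batch together.

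**Figure D4:**
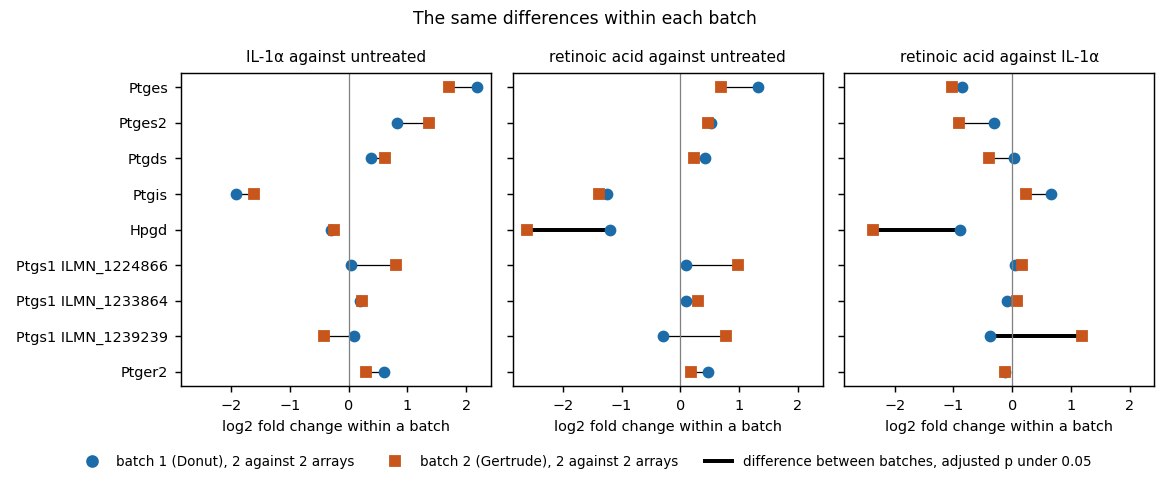
Log2 fold change of the 9 tested member probes within batch 1 (circles) and within batch 2 (squares), from 2 against 2 arrays each; a thick line marks a difference between batches with an adjusted p under 0.05. The Hpgd symbols with retinoic acid lie at -1.19 and -2.62, and those of the Ptgs1 probe ILMN_1239239 against IL-1α lie on both sides of 0, at -0.38 and 1.19.

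Other genes of the eicosanoid pathway were read from a list of 56, of which 54 had a probe and 32 had a probe that passed the filter, each represented by its brightest kept probe. With IL-1α 7 of the 32 were called, 3 higher and 4 lower. With retinoic acid 13 were called, 8 higher and 5 lower. Between the agents 14 were called, 9 higher and 5 lower with retinoic acid. Past 1.5-fold as well, 2 were higher and 3 lower with IL-1α, beside 7.68% and 9.44% of all tested genes, and 6 were higher and 3 lower with retinoic acid, beside 10.9% and 11.9%. Between the agents 4 were higher and 3 lower past that fold, beside 10.7% and 9.55%. Without a fold limit the shares called were 21.9%, 40.6% and 43.8%, beside 29.3%, 35.4% and 31.1% of all probes. The median log2 fold change of the 32 genes was 0.06 with IL-1α and 0.09 with retinoic acid, where the median of all 14317 tested genes was 0.01 for each.

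The widest changes in the list came with retinoic acid, at the branch to thromboxane, in transport and in a lipoxygenase. Tbxas1, thromboxane synthase, read 5.66 and 6.03, then 5.90 and 5.59 untreated and 8.41 and 8.33, then 8.04 and 8.06 with retinoic acid, with no overlap. It rose by 2.41 with retinoic acid (SE 0.17, adjusted p = 1.75e-07), while the difference with IL-1α was -0.37 (adjusted p = 0.113). The second tested Tbxas1 probe rose by 1.47 (adjusted p = 0.00372). Slco2a1, a carrier that takes prostaglandins into cells, rose by 1.91 with retinoic acid (SE 0.20, adjusted p = 7.84e-06), and its second tested probe rose by 1.51. With IL-1α the brighter Slco2a1 probe rose by 0.83 (adjusted p = 0.00758), with 1.43 in batch 1 and 0.23 in batch 2 and a called difference between them (adjusted p = 0.00662), while the second probe gave -0.08 (adjusted p = 0.682). Alox12, the platelet-type lipoxygenase, rose by 2.41 with retinoic acid on its brighter probe (SE 0.16, adjusted p = 1.02e-07), while its other tested probe gave 0.04 (adjusted p = 0.839), so the probes disagreed.

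Smaller changes lay among phospholipases, glutathione transferases and a phospholipase regulator. Pla2g5, a secreted phospholipase A2, fell by 0.88 with retinoic acid (adjusted p = 0.000566), to a level detected on 1 of 4 arrays. Pla2g12a, another, fell by 0.70 (adjusted p = 0.00263) with falls on both of its other tested probes. Pla2g15, a lysosomal phospholipase listed on the array as Lypla3, fell by 0.71 with IL-1α (adjusted p = 0.000404). Anxa1, a phospholipase inhibitor known for its induction by glucocorticoids, rose by 0.76 with retinoic acid (adjusted p = 0.0102), from an untreated level detected on 2 of 4 arrays. Mgst2, a microsomal glutathione transferase that can make leukotriene C4, rose by 0.70 with IL-1α (adjusted p = 0.00167) and 0.87 with retinoic acid (adjusted p = 0.000194). The related Mgst3 fell by 0.60 with IL-1α (adjusted p = 0.00678). Aloxe3, an epidermal lipoxygenase, fell by 0.64 with IL-1α (adjusted p = 0.00569), to a level detected on 1 of 4 arrays. Being undetected on all 4 retinoic acid arrays, it was at least 1.34-fold lower with retinoic acid (adjusted p = 0.000311). Aloxe3 passed the filter through its untreated arrays, all 4 detected, so neither adjusted p is independent of the filter. Of the prostanoid receptors in the list, only Ptgir, the prostacyclin receptor, had a probe that passed, and it fell by 0.54 with retinoic acid (adjusted p = 0.0291) with -0.06 in batch 1 and -1.02 in batch 2 and a called difference between them (adjusted p = 0.0265). Its probe was detected on 2 of 4 untreated and 1 of 4 retinoic acid arrays. Ptgir is named because it alone of those receptors was tested.

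**Figure D5:**
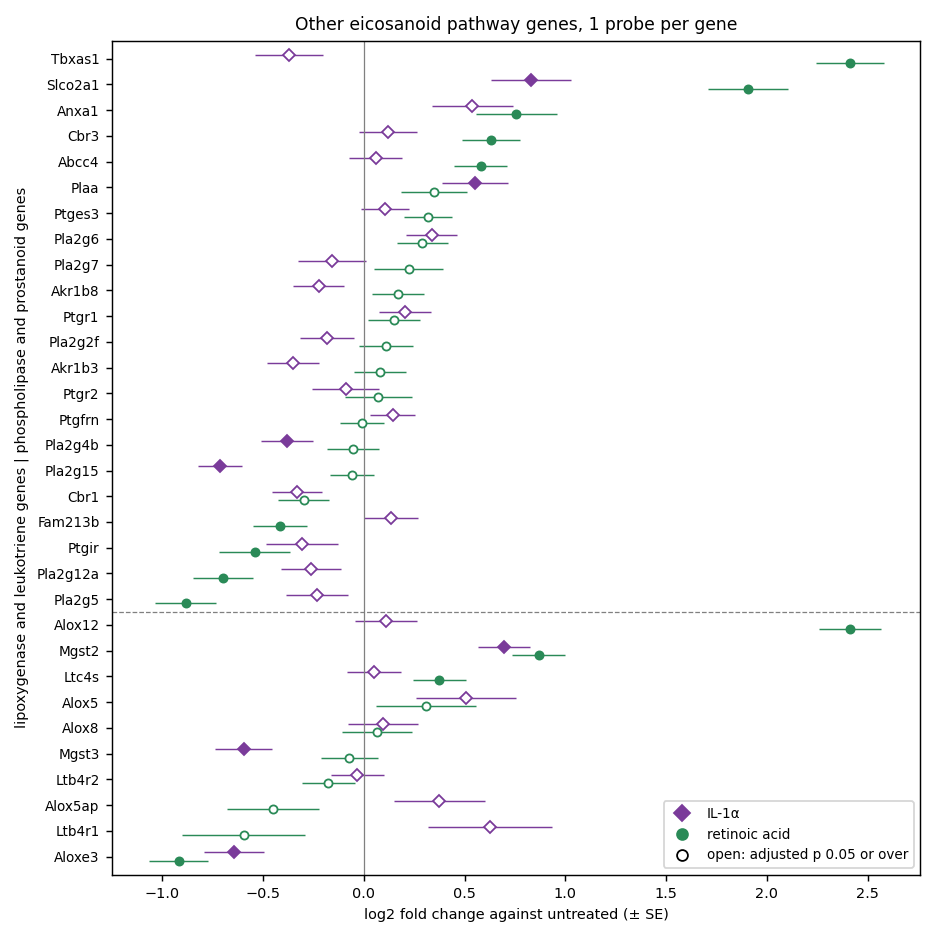
Log2 fold change against untreated, with SE, of the 32 tested genes of the other eicosanoid list, for IL-1α (diamonds) and retinoic acid (circles), filled where the adjusted p was under 0.05. Tbxas1 (2.41), Alox12 (2.41) and Slco2a1 (1.91) stand apart to the right with retinoic acid. Each gene is shown by its brightest kept probe, and the other tested Alox12 probe, not shown, gave 0.04.

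The genes whose pattern was most like that of Ptges and of Hpgd, the members Ptges and Hpgd being those of widest change with IL-1α and with retinoic acid, were ranked by Pearson correlation over the 12 arrays after each batch mean was subtracted. For Ptges they were Cd14 (0.988), Gstp1 (0.977), Rgs16 (0.975), Batf (0.975) and Car13 (0.974). Their log2 fold changes with IL-1α ran from 0.96 for Gstp1 to 3.22 for Rgs16. For Hpgd they were Susd5 (0.984), Clcn3 (0.984), Adrbk2 (0.979), 2210411K11Rik (0.977) and 1110017I16Rik (0.977), with changes with retinoic acid from -0.71 for Clcn3 to -3.31 for 1110017I16Rik. The correlations describe these arrays, which share 3 treatments, and they carry no test.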

How the data were processed

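RNA of 12 cultures was hybridised to 12 Illumina bead arrays. The authors deposited linear probe intensities without normalization and, under a p-value heading, a detection score that rises with intensity, so 1 minus the score was taken as the detection p. Every value column belongs to 1 array. In R 4.3.3, limma 3.58.1 (named in the submitters' processing notes without a version) gave neqc values with an offset of 16. Probes with a detection p under 0.05 on 4 or more arrays entered lmFit and eBayes, with treatment and 4 levels of batch by replicate as terms, as the methods describe. Differences between batches came from treatment-by-batch terms, and the batches were compared in a model of treatment and batch. Adjusted p-values cover all kept probes. Exact tests were two-sided over 70 arrangements of 8 arrays. A group undetected on every array was given the higher of its own value and the lowest detected signal of each array, as a bound. The functions were tested on simulated data. The members, the pathway and marker lists, and the naming rule (pathway genes past 1.5-fold, at most 8 per agent, and the 5 most like genes) were chosen with earlier results of these data known. Of 10 members, 9 matched the promoter table (Ptgis did not). Alternatives in background correction, scaling, offset, filter, blocks and arrays are given in the closing section. The number of arrays limits the precision.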

Additional observations from a re-analysis of the deposited data

Results flagged for a closer look

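The measured fall of Hpgd (ILMN_1240919) with retinoic acid was larger in batch 2 than in batch 1, where its retinoic acid arrays lay closer to background. The log2 difference between the batches was -1.42 against untreated and -1.48 against IL-1α, both by limma's test of the difference itself. For the Ptgs1 probe ILMN_1239239 the difference between retinoic acid and IL-1α was 1.57 higher in batch 2, by the same test. Each batch held 1 mouse line, so line and batch cannot be told apart. Each of 27 groups of 4 arrays, the 9 tested probes in 3 treatments, was examined for an array far from the others, and 0 groups held one. Each group joined 2 arrays of either batch, and all 9 probes differed between batches. The gap between batches widened the spread, so this check does not show that no array deviated.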

How the results depend on the processing

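The called treatment differences of the member probes were recomputed 296 times, of which 260 kept their call, 36 lost it and 0 changed direction. Of 156 values with 1 array left out, 16 lost the call. Of 304 values that were not called, 13 became called and 14 changed sign without a call. With neither batch nor replicate in the model, 2 member probes were called with IL-1α against untreated, 1 with retinoic acid against untreated and 0 between the agents (limma), and the calls for Ptges and Ptgis with IL-1α and for Ptgis with retinoic acid were those that held. Without a filter, 3 probes were called with retinoic acid in place of 5, and the adjusted p was 0.0933 for Ptges2 and 0.12 for the Ptgs1 probe ILMN_1224866. With 1 array left out, the count with retinoic acid was 3 to 5, and it was 3 without untreated batch 2 replicate 2 or retinoic acid batch 2 replicate 2. The count of probes whose effect differed between batches was 2, and it became 4 with scaling to one median and 1 with detection on all 12 arrays. That stricter filter left the Ptgs1 probe ILMN_1239239, detected on 11 arrays, untested. The call for Ptger2 with IL-1α was lost with scaling to one median (adjusted p = 0.0749) and with an offset of 50 (adjusted p = 0.0546), and that for the Ptgs1 probe with an offset of 50 (adjusted p = 0.0515). Apart from the probe that the stricter filter left out, the causes were not tested. Scaling to one median put the median log2 fold change of all probes with retinoic acid at 0.14 in place of 0.02, and the share of calls that were higher at 65.6% in place of 51.6%. Between the agents that share was 65.6% in place of 49%. Replicate numbers hardly paired the arrays by their deviations in batch 1, with correlations of 0.0027 to 0.062. In batch 2 the correlations were mixed, from -0.11 between untreated and retinoic acid to 0.39 between IL-1α and retinoic acid. Without the replicate block, with treatment and batch only, 5, 6 and 4 member probes were called with IL-1α, with retinoic acid and between the agents, in place of 4, 5 and 4, and Ptgds with IL-1α (adjusted p = 0.0395) and Ptger2 with retinoic acid (adjusted p = 0.0448) were gained.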
